A study of Mus musculus with 12 samples.

Results

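YAP and its paralogue TAZ are transcriptional coactivators with no DNA-binding domain of their own, and they reach their target genes mainly through the TEAD family of DNA-binding factors. A set of 10 genes known as direct targets of YAP and TEAD was followed here: Ccn1, Ccn2, Ankrd1, Axl, Myof, Crim1, Ajuba, Ptpn14, Nt5e and F3. The members were taken by name, as all probe sets whose only gene symbol in the platform annotation is that of a member, and the rule used no measured value, although the set was proposed with earlier results of these data known. This gave 21 probe sets of the 34958 with 1 symbol, and 10 genes of 18194.

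Expression was measured on Affymetrix arrays of total RNA from mouse pancreas, in 3 groups of 4 arrays, which the labels call biological replicas A to D. Acini were exocrine acini, the enzyme-secreting units of the gland, freshly isolated and not cultured. Ducts were ductal organoids grown from duct fragments of the pancreas, and yDucts were ductal organoids grown from acini of R26-rtTA; tetO-YAP S127A mice, in which doxycycline had for a time switched on a form of YAP that lacks an inhibitory phosphorylation site. The study's text describes yDucts as propagated afterwards without doxycycline. Both kinds of organoid grew in Matrigel in the same pancreatic organoid medium, with B27, N-acetylcysteine, gastrin, EGF, Noggin, FGF10, nicotinamide and R-Spondin1, whereas Acini never saw it. The doxycycline-responsive activator is made from the broadly active Rosa26 locus, so the transgene was not limited to acinar cells by its driver. In other mice the study labelled acinar cells through Ptf1a-CreERTM. It reported labelled yDucts, and no label in organoids from native ductal progenitors. The study's methods describe the mice used for acini as young adults, and a legend treats each array as a biological sample of its own. The genotype and strain behind the Acini and Ducts arrays, the age behind Ducts, and which animals or cultures the 4 arrays of a group came from could not be read from the sources used here. The p-values rest on how far these biological replicas lay from each other, pooled over the 3 groups.

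In the Hippo pathway, the kinase MST activates the kinase LATS, which phosphorylates YAP and TAZ. These then stay in the cytoplasm or are degraded. When the pathway is quiet or the cell is spread under tension, YAP and TAZ enter the nucleus and raise genes such as Ccn1, Ccn2 and Ankrd1, which are widely read as a measure of their activity. In the adult pancreas, YAP is known to be found mainly in duct and centroacinar cells, with little in acinar cells. Some of the targets act back on the pathway: Ajuba binds and restrains LATS, while Ptpn14 holds YAP back.

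Promoter windows of 300 bases, from 250 before to 50 after the start of the gene, were available from RefSeq (GRCm38.p6) for 9 of the 10 members, the exception being Ccn2. The TEAD core GGAATG, read on both strands, was present in 6 of the 9 windows (Ccn1, Ankrd1, Axl, Crim1, Ajuba and Ptpn14), beside 14.7% of all 32851 windows of the table. The AP-1 site TGANTCA, where N is any base and which is its own reverse complement apart from that base, was present in 1 of the 9 (F3) and in 7.81% of all windows. A match is a description of the letters and not a bound site, and the lack of one says only that the letters are not in the window. Below are the windows of Ankrd1 and Ajuba, which hold 2 TEAD cores each, of Ccn1, which holds 1 and whose values stood apart from the rest, and of F3, which holds 2 AP-1 sites and no TEAD core. They are written 5′ to 3′ on the strand of the gene, with the matches in capitals. CATTCC is GGAATG read on the other strand. Ankrd1 lies at chr19:36119795-36120094 on the minus strand, Ajuba at chr14:54577612-54577911 on the minus strand, Ccn1 at chr3:145649936-145650235 on the minus strand and F3 at chr3:121723287-121723586 on the plus strand.
Ankrd1: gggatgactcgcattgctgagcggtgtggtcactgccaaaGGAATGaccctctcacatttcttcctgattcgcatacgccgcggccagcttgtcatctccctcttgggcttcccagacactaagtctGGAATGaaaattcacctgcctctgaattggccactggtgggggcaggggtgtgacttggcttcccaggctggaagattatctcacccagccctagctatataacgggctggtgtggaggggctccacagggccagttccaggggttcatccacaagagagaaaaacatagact
Ajuba: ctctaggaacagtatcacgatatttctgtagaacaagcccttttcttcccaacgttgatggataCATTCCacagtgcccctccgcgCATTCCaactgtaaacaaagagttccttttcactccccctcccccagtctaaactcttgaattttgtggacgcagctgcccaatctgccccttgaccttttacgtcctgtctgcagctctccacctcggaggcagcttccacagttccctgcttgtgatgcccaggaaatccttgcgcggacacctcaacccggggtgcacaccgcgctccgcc
Ccn1: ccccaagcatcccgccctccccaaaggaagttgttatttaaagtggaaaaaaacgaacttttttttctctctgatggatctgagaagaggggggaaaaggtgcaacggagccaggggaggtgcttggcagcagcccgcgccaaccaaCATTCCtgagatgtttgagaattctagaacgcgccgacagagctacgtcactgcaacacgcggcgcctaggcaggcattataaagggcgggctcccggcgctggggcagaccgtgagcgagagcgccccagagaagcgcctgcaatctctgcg
F3: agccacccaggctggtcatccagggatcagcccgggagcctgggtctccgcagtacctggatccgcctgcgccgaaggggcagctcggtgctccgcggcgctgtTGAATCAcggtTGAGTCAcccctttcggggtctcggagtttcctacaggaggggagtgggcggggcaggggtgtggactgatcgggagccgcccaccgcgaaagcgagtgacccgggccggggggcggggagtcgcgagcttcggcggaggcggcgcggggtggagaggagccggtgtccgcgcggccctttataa
The first base of the match lay 210 and 123 bases before the start in Ankrd1, 186 and 164 in Ajuba and 103 in Ccn1, and the AP-1 matches of F3 lay 146 and 135 bases before it. In the other members with a TEAD core it lay 233 bases before the start in Axl, 79 in Crim1 and 146 in Ptpn14.

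All values below are the deposited log2 expression values of 1 probe set per gene, and differences between groups are on the same log2 scale with the standard error (SE) of a limma model over all 12 arrays. The model takes 1 spread per gene, shared by the 3 groups, so the spread of Ducts also enters yDucts against Acini. A gene was called higher or lower at a Benjamini-Hochberg adjusted p under 0.05 over the 14991 genes tested, and all 10 members were among these. In Ducts against Acini, 8 of the 10 members were higher, 0 were lower and 2 were not called, with a median difference of 2.95 against 0.205 over all genes. In this comparison 42.7% of all genes were called higher and 33.1% lower. In yDucts against Acini, 8 were higher, 1 was lower and 1 was not called, with a median of 2.71 against 0.2425 over all genes, of which 43.6% were called higher and 32.6% lower. The groups did not overlap on any array for 8 members in the first comparison and 9 in the second, beside 64.5% and 71.7% of all genes. Both comparisons share the 4 Acini arrays, so they are not independent of each other. A difference of at least 1 on the log2 scale together with a call was found in 8 members in each, beside 49.7% and 50.5% of all genes.

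**Figure D1:**
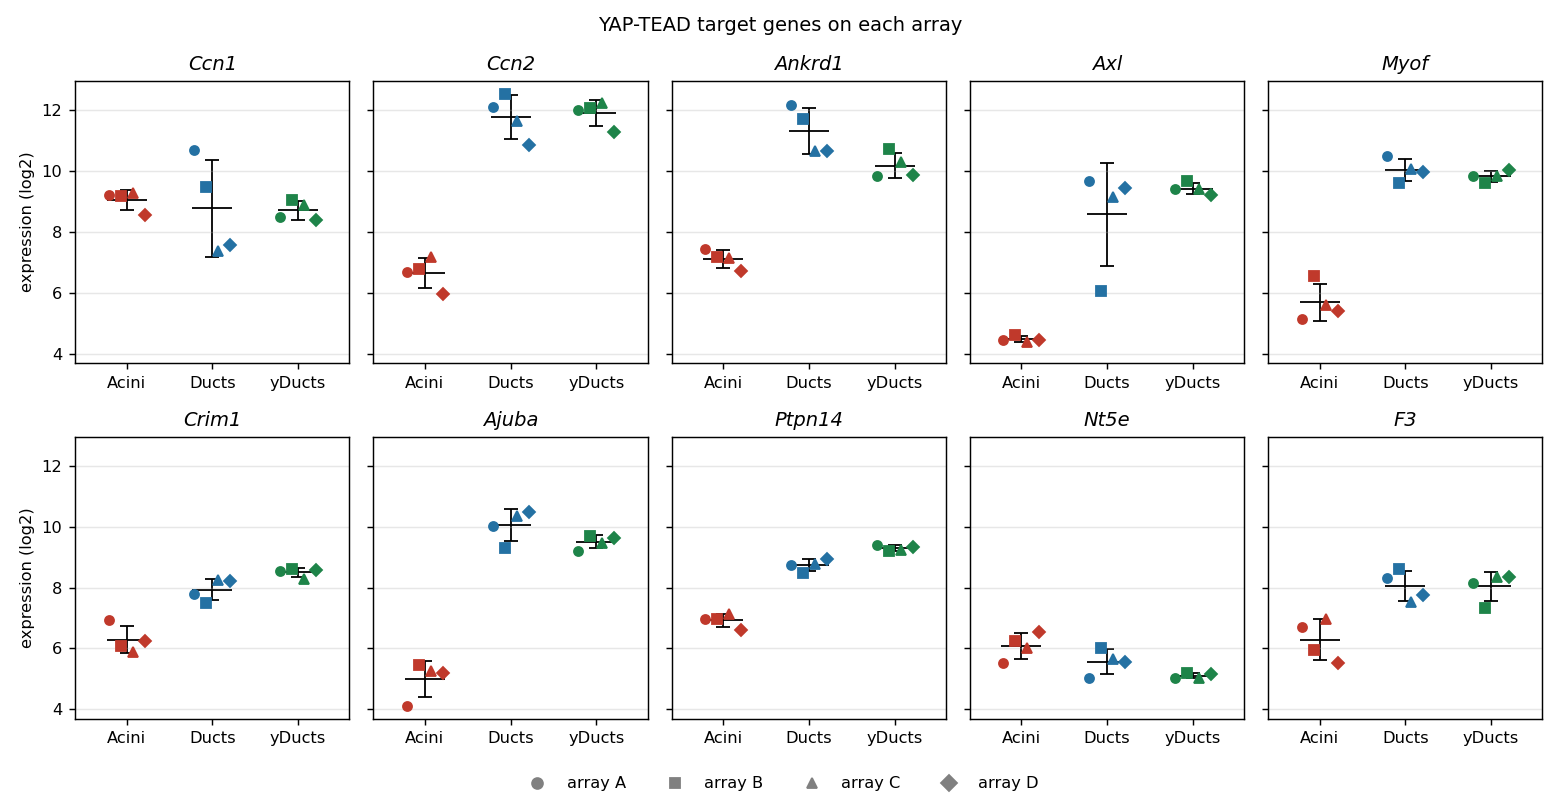
Log2 expression of the 10 target genes (y axis, the same scale in all panels) on each of the 12 arrays, by group on the x axis. Marker shape gives the array letter, the long dash is the group mean and the bars are the SD of 4 arrays. Axl on Ducts B (6.05) sits apart from the other Ducts arrays, and Ccn1 on Ducts runs from 7.37 to 10.69.

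The strongest contrasts with Acini among the secreted members were in Ccn2. Ccn2 (also called CTGF) encodes a matricellular protein that binds integrins and growth factors. It read 6.69, 6.78, 7.18 and 5.97 on Acini A to D, 12.09, 12.53, 11.64 and 10.85 on Ducts A to D, and 12.00, 12.08, 12.22 and 11.29 on yDucts A to D. Every organoid array stood above every Acini array, and the organoid groups overlapped each other. The difference was 5.12 ± 0.35 (SE, n = 4 arrays a group) in Ducts, or 34.8-fold (95% confidence interval 20.6 to 58.9, adjusted p = 5.99e-08), and 5.24 ± 0.35 in yDucts, or 37.9-fold (22.4 to 64.0, adjusted p = 4.76e-08).

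Ccn1 (CYR61), the other matricellular member and a gene that also responds at once to growth factors and mechanical stress, did not share this pattern. It read 9.22, 9.17, 9.28 and 8.57 on Acini, 10.69, 9.49, 7.37 and 7.58 on Ducts, and 8.48, 9.04, 8.90 and 8.40 on yDucts. Ducts A and B stood above all Acini arrays, Ducts C and D stood below all of them, and yDucts overlapped Acini at their lower end. The difference was -0.28 ± 0.58 in Ducts (95% interval -1.53 to 0.97, adjusted p = 0.674) and -0.36 ± 0.58 in yDucts (-1.61 to 0.90, adjusted p = 0.585). Neither was called, but with cyclic loess scaling the difference in yDucts was -1.48 and called lower (adjusted p = 0.0417). The SE and interval of yDucts against Acini hold the spread of Ducts, where the SD of Ccn1 was 1.59. It was 0.33 on Acini and 0.31 on yDucts. In Ducts, without Ducts C and D the difference was 1.03 (adjusted p = 0.0164), and without Ducts A and B it was -1.59 (adjusted p = 0.000144), so the direction rests on which Ducts arrays are used.

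Ankrd1 encodes an ankyrin repeat protein that works in the nucleus and, in muscle, at the sarcomere. It read 7.43, 7.17, 7.16 and 6.72 on Acini, 12.18, 11.70, 10.67 and 10.67 on Ducts, and 9.83, 10.71, 10.29 and 9.87 on yDucts. All organoid arrays lay above all Acini arrays, with Ducts A and B the highest of all. The difference was 4.19 ± 0.33 in Ducts (18.2-fold, adjusted p = 2.07e-07) and 3.06 ± 0.33 in yDucts (8.31-fold, adjusted p = 3.15e-06). Myof (myoferlin), a ferlin that takes part in membrane repair and fusion, read 5.16, 6.57, 5.62 and 5.41 on Acini, 10.48, 9.59, 10.08 and 9.96 on Ducts, and 9.85, 9.60, 9.83 and 10.04 on yDucts. The organoid groups overlapped each other and lay above Acini throughout. Its difference was 4.34 ± 0.28 in Ducts (20.2-fold, adjusted p = 3.15e-08) and 4.14 ± 0.28 in yDucts (17.6-fold, adjusted p = 4.64e-08).

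Among the members at the cell surface, Axl, a receptor tyrosine kinase of the TAM family, read 4.46, 4.62, 4.39 and 4.45 on Acini, 9.67, 6.05, 9.16 and 9.43 on Ducts, and 9.40, 9.66, 9.42 and 9.21 on yDucts. All organoid arrays were above Acini, but Ducts B lay far below the other Ducts arrays. The difference was 4.10 ± 0.60 in Ducts (17.1-fold, adjusted p = 4.26e-05) and 4.94 ± 0.60 in yDucts (30.7-fold, adjusted p = 8.31e-06). The SE in yDucts holds the spread of Ducts, where the SD of Axl was 1.698. It was 0.098 on Acini and 0.184 on yDucts. With only Acini and yDucts in the limma fit, the adjusted p of yDucts against Acini was 1.22e-09. Without Ducts B the difference in Ducts was 4.94 (adjusted p = 2.13e-10), and that of yDucts against Ducts went from 0.85 to 0.0025. The mean level of 7 duct markers was 10.07, 11.07, 9.12 and 8.90 on Ducts A to D, the highest on the array with the lowest Axl, and its part in the Axl value was not tested.

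F3 encodes tissue factor, the membrane receptor that starts blood clotting. It read 6.71, 5.94, 6.98 and 5.52 on Acini, 8.31, 8.60, 7.53 and 7.76 on Ducts, and 8.16, 7.34, 8.34 and 8.34 on yDucts. The lowest organoid array (yDucts B) lay above the highest Acini array (Acini C) by less than the spread within Acini. The difference was 1.76 ± 0.35 in Ducts (3.39-fold, adjusted p = 0.000508) and 1.76 ± 0.35 in yDucts (3.38-fold, adjusted p = 0.000513). Both calls were lost with cyclic loess scaling, at 0.75 each (adjusted p = 0.0755 in Ducts and 0.0759 in yDucts).

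Crim1, a transmembrane protein with cysteine-rich repeats that binds BMPs, read 6.93, 6.09, 5.90 and 6.25 on Acini, 7.80, 7.49, 8.23 and 8.20 on Ducts, and 8.54, 8.60, 8.28 and 8.56 on yDucts. The 3 groups stood in the order Acini, Ducts, yDucts, with no array out of place. The difference against Acini was 1.64 ± 0.23 in Ducts (3.11-fold, adjusted p = 3.00e-05) and 2.20 ± 0.23 in yDucts (4.60-fold, adjusted p = 2.17e-06).

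Nt5e (CD73), the surface enzyme that turns extracellular AMP into adenosine, ran the other way. It read 5.51, 6.25, 6.0 and 6.53 on Acini, 5.04, 6.02, 5.66 and 5.57 on Ducts, and 5.04, 5.20, 5.02 and 5.15 on yDucts. Ducts overlapped Acini on 3 of 4 arrays, while all yDucts arrays were below all Acini arrays. The difference was -0.50 ± 0.23 in Ducts (adjusted p = 0.0657), not called, and -0.97 ± 0.23 in yDucts, or 1.96-fold lower (adjusted p = 0.00207).

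The members that feed back on the pathway were both higher in organoids. Ajuba, a LIM domain protein of cell junctions that binds LATS kinases, read 4.12, 5.45, 5.26 and 5.19 on Acini, 10.03, 9.30, 10.36 and 10.47 on Ducts, and 9.21, 9.68, 9.46 and 9.64 on yDucts. The lowest organoid array was over 3 above the highest Acini array on this scale. Its difference was 5.04 ± 0.30 in Ducts (32.8-fold, 95% interval 20.8 to 51.7, adjusted p = 1.96e-08) and 4.49 ± 0.30 in yDucts (22.5-fold, 14.3 to 35.5, adjusted p = 5.31e-08). Ptpn14, a non-receptor tyrosine phosphatase that binds YAP, read 6.97, 6.98, 7.14 and 6.62 on Acini, 8.75, 8.47, 8.78 and 8.93 on Ducts, and 9.40, 9.20, 9.24 and 9.33 on yDucts. As for Crim1, the 3 groups followed each other without overlap. The difference was 1.81 ± 0.15 in Ducts (3.49-fold, adjusted p = 3.17e-07) and 2.37 ± 0.15 in yDucts (5.15-fold, adjusted p = 3.11e-08).

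**Figure D2:**
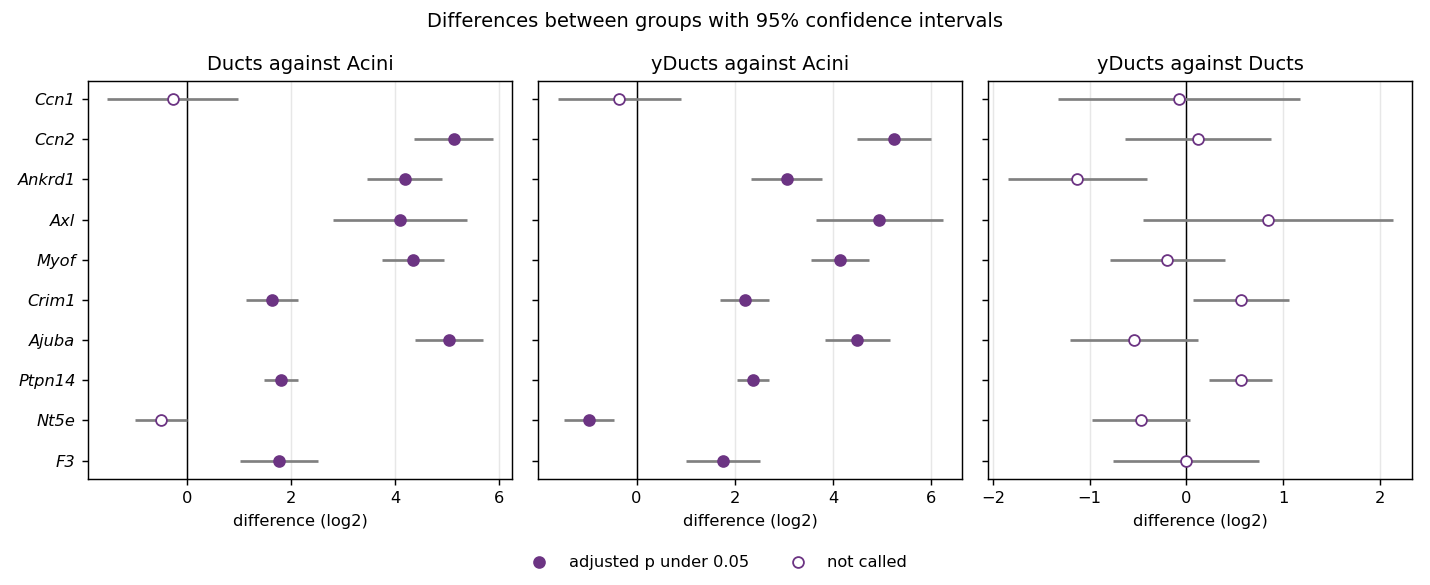
Differences of the 10 target genes (rows) in the 3 comparisons, on the log2 scale of the x axis, which differs between panels. Points are the fitted differences, bars their 95% confidence intervals, and filled points were called. Against Acini 8 members lie to the right of 0 with filled points, and in yDucts against Ducts no point is filled.

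The organoid groups were also set against each other. In yDucts against Ducts, 0 of the 10 members were called by limma, 3 had an unadjusted p under 0.05, and the median difference was -0.04 against -0.0025 over all genes. Of all genes, 2.15% were called higher and 0.987% lower, and 13.8% had an unadjusted p under 0.05. With so small a share of all genes called, 0 of 10 does not set the members apart. Crim1 and Ptpn14 were the 2 members whose groups did not overlap, both above in yDucts, beside 12.3% of all genes. Ptpn14 was 0.56 ± 0.15 higher (95% interval 0.23 to 0.89, adjusted p = 0.0686) and Crim1 0.57 ± 0.23 higher (0.07 to 1.06, adjusted p = 0.274). The other probe sets of Ptpn14 differed by only 0.0375 and 0.0125, and the second probe set of Crim1 by 0.485. In these probe sets the groups overlapped and none was called. Ankrd1 stood 1.13 ± 0.33 lower in yDucts (difference -1.13, interval -1.85 to -0.41, adjusted p = 0.0990), with yDucts B just above Ducts C and D. The intervals of the other members held 0. Ccn2 lay at 0.12 (-0.64 to 0.88), Myof at -0.20 (-0.79 to 0.40) and F3 at -0.01 (-0.76 to 0.75), so that a difference past about 0.9 lies outside them. Those of Ccn1 (-1.33 to 1.17) and Axl (-0.45 to 2.14) were wider and leave larger differences possible. A p that misses the threshold does not show that the groups were alike.

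Under other settings 1 member was called in this comparison in several cases, not the same one each time: Ptpn14 with cyclic loess scaling (0.56, adjusted p = 0.0434) and with the 2 groups alone (adjusted p = 0.0356), Ankrd1 without Ducts C and D (-1.77, adjusted p = 0.00703) and Ccn1 without Ducts A and B (1.23, adjusted p = 0.00595). With array weights 6 members were called, 3 in each direction, where 3150 and 3033 of all genes were called higher and lower in place of 322 and 148.

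The 4 Ducts arrays did not form an even group, in these genes or over all probe sets. Over all probe sets, Ducts C and D had a root mean square difference of 0.253 (r = 0.995). Ducts A differed by 0.464, 0.474, 0.423 and 0.456 from yDucts A to D. It lay farther from Ducts B, C and D, at 0.480, 0.571 and 0.604. Ducts B lay nearest to Ducts A. How independent the Ducts arrays were was not tested. The mean of Ducts A and B exceeded that of C and D by 2.62 in Ccn1 (a gap passed by 1.19% of all genes), by 1.27 in Ankrd1 (6.43%) and by 1.07 in Ccn2 (9.01%). In F3 it was higher by 0.81, and in Ajuba (-0.75) and Crim1 (-0.57) lower. The gap of -1.44 in Axl came from Ducts B alone, since Ducts A lay above C and D. Myof had the same level in both pairs (gap 0.015). The median SD of the members over 4 arrays was 0.441 in Acini, 0.510 in Ducts and 0.199 in yDucts, beside 0.361, 0.229 and 0.137 over all genes. The SD of Ccn1 in Ducts was 1.59, which 1.52% of genes exceeded, and that of Axl was 1.698, which 1.29% exceeded. The mean level of 15 immediate early and heat shock genes, transcripts that respond quickly to handling, was 8.22 and 8.59 on Ducts A and B and 7.79 and 7.76 on C and D, where Ccn1 was lower too. It was 10.30 to 10.82 on Acini and 8.42 to 8.58 on yDucts. The part of this in the Ccn1 values was not tested.

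**Figure D3:**
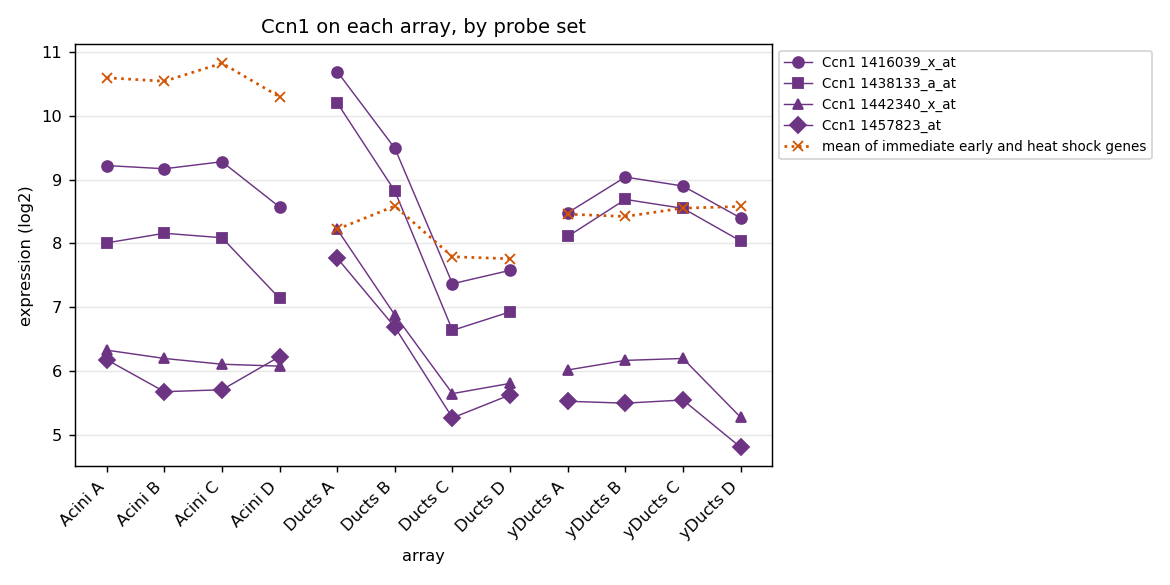
Log2 expression (y axis) of the 4 probe sets of Ccn1 on each of the 12 arrays (x axis, lines join arrays of a group only to guide the eye), with the mean of 15 immediate early and heat shock genes as crosses. On Ducts all 4 probe sets are highest on array A and lowest on C. Levels of different probe sets are not comparable with each other.

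The rule took all 21 probe sets, and 19 of them passed the filter on low values. A further probe set of Axl (2.16 to 2.65) and one of Myof (2.18 to 3.05) lay below the 30th percentile of every array and were not tested. Fitted by probe set, 13 of the 19 were higher and 1 was lower in Ducts against Acini, where 42.6% of all probe sets tested were higher and 29.4% lower. In yDucts against Acini 12 were higher and 2 lower, beside 43% and 29.3%. In yDucts against Ducts 0 were higher and 1 lower, beside 1.78% and 0.754%.

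Against Acini, the tested probe sets of Ankrd1, of Crim1 and of Ptpn14 kept 1 sign within each gene. The second probe set of Ankrd1 differed by 5.01 in Ducts and 4.06 in yDucts, and that of Crim1 by 1.46 and 1.94. The other probe sets of Ptpn14 gave smaller differences with the same sign, 1.26 and 0.42 in Ducts and 1.30 (adjusted p = 0.000326) and 0.43 (adjusted p = 0.0259) in yDucts. None of the 4 probe sets of Ccn1 was called in any comparison by limma, and their differences ran from -0.28 to 0.46 in Ducts and from -0.60 to 0.50 in yDucts. The probe set that stands for Ccn1 was the only one of them with a negative difference in Ducts, and signs were mixed in yDucts too. All 4 read highest on Ducts A among the Ducts arrays and lowest on Ducts C.

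Nt5e had probe sets called in opposite directions in Ducts against Acini. Its second probe set read 3.57, 3.58, 3.64 and 3.77 on Acini, 3.72, 6.41, 5.62 and 5.26 on Ducts, and 3.08, 3.53, 3.32 and 3.42 on yDucts. Ducts B, C and D stood well above all other arrays, while Ducts A lay among the Acini. It was 1.61 ± 0.41 higher in Ducts than in Acini (adjusted p = 0.00295) and differed by -1.92 in yDucts against Ducts (adjusted p = 0.0233). The third probe set was lower in both organoid groups, by -0.68 ± 0.15 in Ducts (adjusted p = 0.00123) and -0.78 ± 0.15 in yDucts (adjusted p = 0.000392). The Nt5e probe sets therefore gave opposite directions in Ducts, and which parts of the transcript they read was not analysed here.

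**Figure D4:**
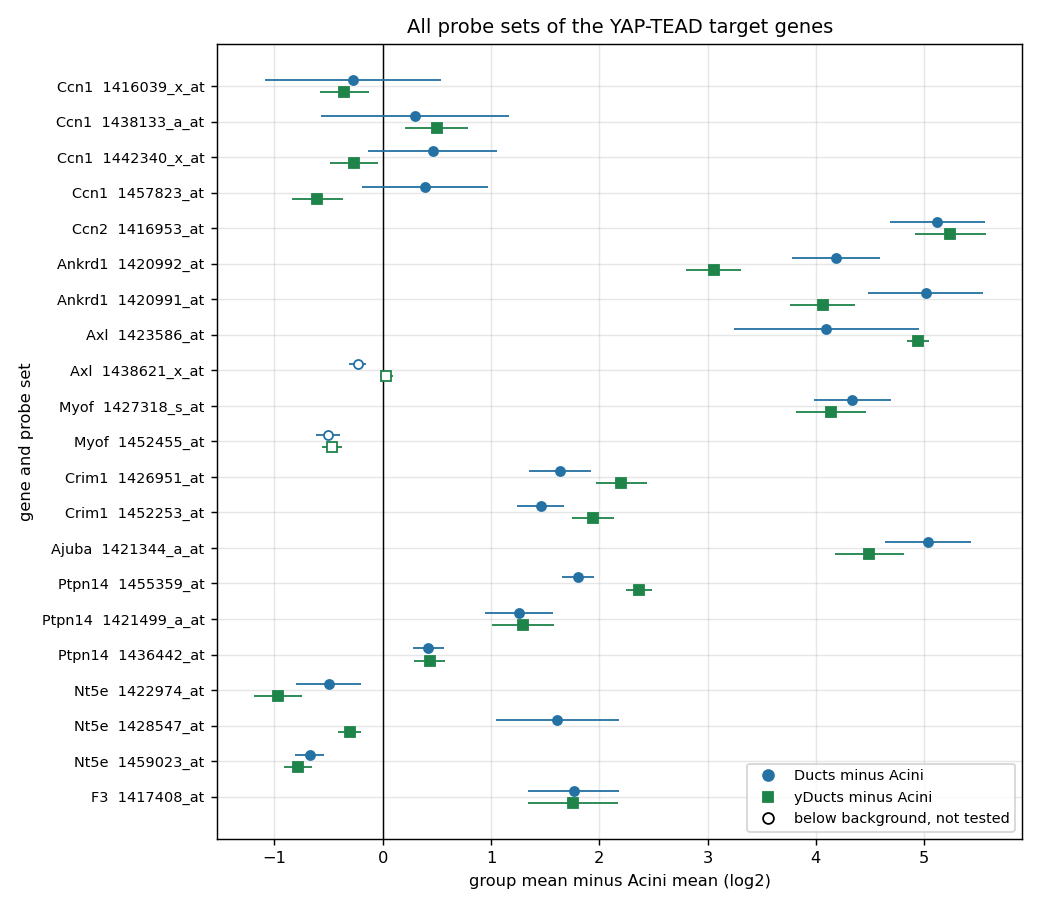
Group mean minus Acini mean on the log2 scale (x axis) for each of the 21 probe sets (rows), as circles for Ducts and squares for yDucts. Bars are the standard error of the difference from the SDs of 4 arrays each, and open symbols are the 2 probe sets below background. Of the 3 Nt5e probe sets, 1 lies to the right of 0 in Ducts and to the left in yDucts.

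The other genes of the pathway were taken from lists made for this purpose. Of 13 other YAP and TAZ target genes, 10 were higher, 2 lower and 1 not called in Ducts against Acini, with a median of 1.71, and 11 were higher and 2 lower in yDucts. Of all genes, 42.7% were called higher and 33.1% lower in Ducts, and 43.6% and 32.6% in yDucts. The list counts of 10 and 2 and of 11 and 2 changed with the scaling. With cyclic loess scaling they were 8 and 2 in Ducts and 7 and 1 in yDucts. Gadd45a, a growth arrest and DNA damage gene, averaged 5.91 on Acini, 9.42 on Ducts and 8.54 on yDucts (differences 3.52 and 2.64). Amotl2, an angiomotin that binds YAP, differed by 3.36 and 2.75, Nuak2, a kinase of the AMPK family, by 2.66 and 2.37, and Lats2, the kinase that phosphorylates YAP, by 2.07 and 1.57. Ccdc80, a secreted matrix protein, was lower by -1.63 and -1.702, and Tgfb2, a TGF-beta ligand, by -0.77 and -0.46. Between organoid groups Foxf2, a forkhead factor of mesenchyme, was higher in yDucts, at 6.21 against 3.06 (at least 7.62-fold, adjusted p = 3.90e-06), and Gadd45a was lower by -0.88 (adjusted p = 0.0436).

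Of the 10 coactivators and DNA-binding partners (YAP, TAZ, TEAD and VGLL genes), 4 were higher and 3 lower in each organoid group against Acini, and 2 and 3 in Ducts with quantile scaling. The counts of 4 and 3 lie near the shares of all genes and do not set the list apart. Those shares were 42.7% higher and 33.1% lower in Ducts, and 43.6% and 32.6% in yDucts. Wwtr1, which encodes TAZ, was higher by 2.46 ± 0.15 in Ducts and 2.29 ± 0.15 in yDucts, and Tead1 by 2.14 ± 0.22 and 1.84 ± 0.22. Yap1 was higher by 1.12 ± 0.14 in Ducts (adjusted p = 9.91e-06) and 1.30 ± 0.14 in yDucts (adjusted p = 2.63e-06), but the call in Ducts was lost with quantile scaling (0.24) and with cyclic loess (-0.01, where the sign turned), and that in yDucts with cyclic loess (0.17). Tead4 was higher by 1.52 and 1.28, and turned to -0.26 and -0.45, not called, with quantile scaling. Tead2 was lower by -1.58 ± 0.15 and -2.03 ± 0.15, and Tead3 was not called (-0.44 and -0.52). Between Ducts and yDucts 0 of the 10 were called by limma, beside 2.15% of all genes called higher and 0.987% lower. Yap1 differed by 0.18 (adjusted p = 0.702) and Wwtr1 by -0.17 (adjusted p = 0.758).

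Of 17 Hippo pathway components tested, 13 were higher and 0 lower in Ducts, and 12 higher and 0 lower in yDucts, with medians of 1.53 and 1.54. Beside them, 42.7% of all genes were called higher and 33.1% lower in Ducts, and 43.6% and 32.6% in yDucts. The splits of the 17 components depended on the scaling, being 10 higher and 3 lower in Ducts and 10 and 4 in yDucts with quantile scaling, and 9 and 4, and 9 and 5, with cyclic loess. Amot, the founding angiomotin, differed by 5.24 and 5.05. Wtip, a LIM protein of the same family as Ajuba, differed by 4.0 and 4.14, whereas their relative Limd1 was not called (0.31 and 0.10). The kinases Taok1 (3.64 and 3.52) and Stk4, which encodes MST1 (3.55 and 3.19), were higher. Nf2, the upstream scaffold merlin, was higher in Ducts by 0.47 (adjusted p = 0.0272), and turned to -0.42 (adjusted p = 0.0488) with quantile scaling. In yDucts against Ducts 0 of the 17 were called, beside 2.15% of all genes called higher and 0.987% lower.

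Relatives and partners of the members were mostly lower in the organoids. Of 18 tested, 1 was higher and 14 lower in Ducts, and 4 higher and 11 lower in yDucts, with medians of -0.88 and -0.80. Of all genes, 33.1% were called lower in Ducts and 32.6% in yDucts. Several of these genes lay near background, with 4 of 22 below it on Acini, 8 on Ducts and 7 on yDucts. The background limit itself was higher on Acini (3.72) than on Ducts (3.21) and yDucts (3.195). With quantile scaling 1 was higher and 12 lower in each, and with cyclic loess 1 of 17 was higher in each, and 10 were lower in Ducts and 9 in yDucts, the higher one being F2r. F2r, the thrombin receptor of the clotting pathway that tissue factor starts, was the higher one in Ducts, from 6.29 in Acini to 11.38 (difference 5.10) and to 10.08 in yDucts (3.79). Thbd, the anticoagulant thrombomodulin, was lower by -3.13 in Ducts and -4.34 in yDucts, and Entpd1 (CD39), the ectonucleotidase upstream of Nt5e, was at least 10.3-fold lower in Ducts and at least 10.4-fold lower in yDucts. Mertk, a TAM receptor like Axl, was at least 3.12-fold lower in Ducts and 3.07-fold lower in yDucts, and Tfpi2, a protease inhibitor related to Tfpi, was at least 1.90-fold and at least 1.92-fold lower. Of the ligands of Axl, Gas6 differed by 0.84 in Ducts (adjusted p = 0.0628) and was higher by 1.51 in yDucts (adjusted p = 0.00313), a call lost with quantile scaling (0.64) and cyclic loess (0.39); in Ducts its sign turned under both (-0.04 and -0.28). Pros1, the other ligand, was lower by -1.06 in Ducts and higher by 1.07 in yDucts, a difference of 2.13 between the organoids (adjusted p = 0.00193). The call of Pros1 in yDucts against Acini was lost with quantile scaling (0.52) and cyclic loess (0.72). Tfpi, the inhibitor of tissue factor, was lower by -0.93 in Ducts and was 1.28 higher in yDucts than in Ducts (adjusted p = 0.000294). Its difference between yDucts and Acini was 0.35 (adjusted p = 0.0432) and turned to -0.52 with quantile scaling.

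**Figure D5:**
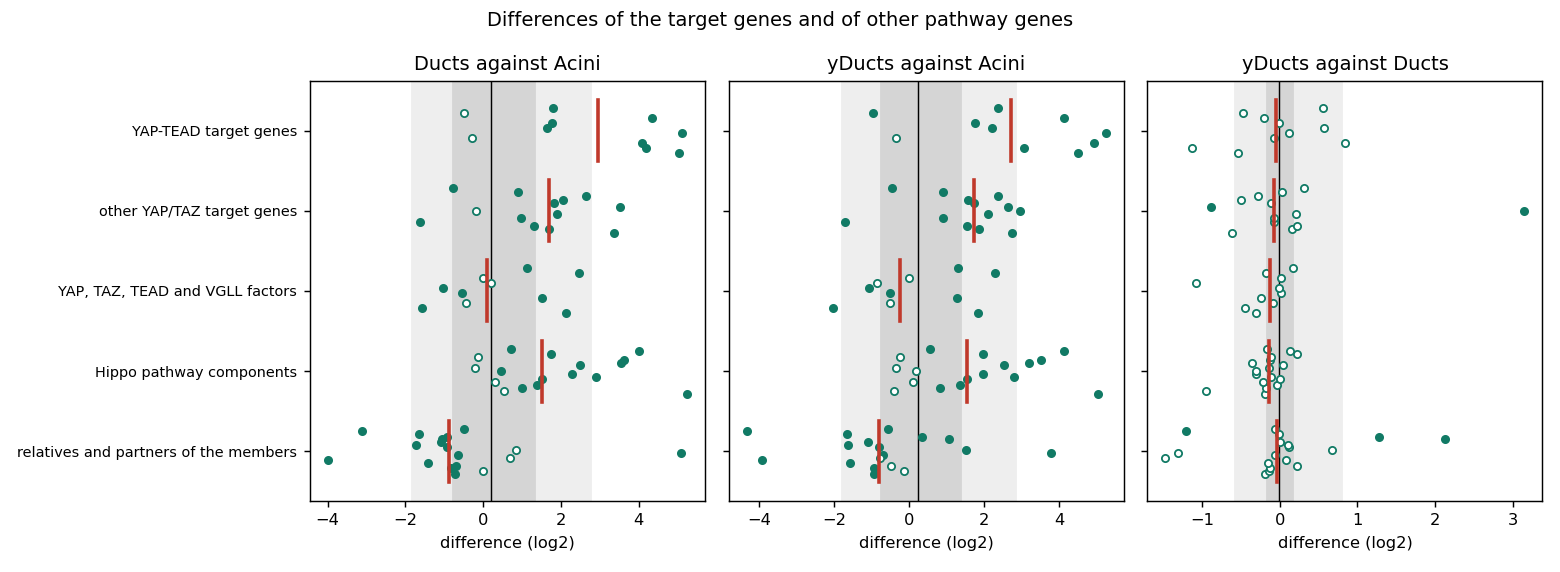
Log2 differences (x axis, scales differ between panels) of each tested gene of 5 lists (rows) in the 3 comparisons, filled where called. Red bars are list medians, the black line is the median of all genes, and the dark and light bands run between the quartiles and between the 5th and 95th percentiles of all genes. The median of the target genes is 2.95 and 2.71 against Acini and -0.04 between the organoids.

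Bulk samples cannot tell fewer cells of a type from less RNA per cell, and freshly isolated tissue and cultured organoids cannot be told apart from acinar and ductal identity in the comparisons with Acini. The labels fit the acinar markers, 10 of 10 of which were lower in both organoid groups. In yDucts against Ducts 1 of the 10, Nr5a2, was higher and 9 were not called. Nr5a2 read 7.20, 6.99, 6.89 and 6.80 on yDucts A to D, 2.99 to 3.53 on Ducts and 9.66 to 9.92 on Acini. Among all genes, 42.7% were called higher and 33.1% lower in Ducts, and 43.6% and 32.6% in yDucts. Of 7 duct markers 4 were higher in each organoid group. In yDucts Muc1 was lower by -0.67 and Sox9 and Cftr were not called, and in Ducts these 3 were not called. The Acini arrays also carried markers of other cells. Stromal markers were lower in Ducts in 13 of 13 cases and in yDucts in 12 of 13, the exception being Vim. The log2 of their summed level was 12.00 to 12.87 on Acini, 7.37 to 7.51 on Ducts and 9.80 to 11.07 on yDucts. On yDucts A to D, Vim alone read 10.96, 9.51, 10.78 and 10.76 and made up most of that sum. The mean log2 of the stromal list was 6.72 to 7.21 on Acini, 3.46 to 3.59 on Ducts and 3.98 to 4.11 on yDucts. Col3a1, Lum, Pdgfra, Rgs5 and Postn were below background in both organoid groups. Endothelial markers were lower in 8 of 8, and endocrine markers in 6 of 6. The log2 of the summed endothelial level was 10.09 to 10.75 on Acini, 7.28 to 7.68 on Ducts and 7.53 to 7.69 on yDucts. Pecam1, Cdh5, Tek and Emcn were below background in organoids. Of 7 immune markers 5 were lower and 1, Cd14, was higher. Of 4 mesothelial markers 3 were lower and Msln was higher. The deposited medians averaged 4.59 on Acini, 4.38 on Ducts and 4.375 on yDucts, and the 30th percentiles, which set the background limit, 3.72, 3.21 and 3.195. The difference between 3′ and 5′ probe sets of Gapdh, a sign of RNA quality, averaged 1.54 on Acini, -0.04 on Ducts and -0.15 on yDucts. These move with every difference against Acini, Nt5e and Ccn1 included, and their part in the results was not tested.

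The genes whose profile over the 12 arrays came closest to each member, after each gene was centred on its own mean, are given by the root mean square difference on the log2 scale, as a description. They were Basp1 (0.369), Acer3 and Prxl2a for Ccn2, Tubb2b (0.421), Adgrg6 and 9130008F23Rik for Ankrd1, and Samd5 (0.612), Cd53 and Snhg4 for Axl. For Myof they were Fam107b (0.293), Mboat1 and Ccnd1, for Ajuba Snhg4 (0.293), Ccng2 and Cav2, and for F3 Nbl1 (0.241), Scaper and G2e3. For Crim1 they were Zfp74 (0.216), Pqbp1 and Evc2, and for Ptpn14 Gpatch8 (0.160), Atp11a and Ss18. For Nt5e they were Gm15511 (0.200), Srp9 and Ufm1, and for Ccn1 Pcp4l1 (0.397), Limd2 and Foxc2. Pearson's r of these first genes with their member lay between 0.882 (Ccn1) and 0.992 (Ajuba), over arrays that share the group contrast. Among the members themselves, Crim1 and Ptpn14 (0.306), Myof and Ajuba (0.457) and Ptpn14 and F3 (0.541) were the closest pairs. Ccn2 and Nt5e (2.86) were the farthest apart.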

How the data were processed

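Total RNA of 12 samples was hybridised to 1 Affymetrix array each. The values deposited by the authors are log2 expression, 1 for each probe set and array, made with RMA per the submitters' processing notes. RMA quantile-normalizes the arrays, so a value is relative to the other genes of its array, yet the medians of the deposited arrays differed between Acini and organoids. The sources used here name neither its version nor the chip definition, nor say whether all arrays were run together. The 45101 probe sets were named from the platform annotation (34958 with 1 symbol, 932 with several, 9211 with none). A gene was represented by its probe set with the highest mean over the 12 arrays, and was tested if above the 30th percentile of the array on at least 4 arrays. Where a group mean lay below that percentile, the fold is given as "at least", against values raised to the percentile.

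Groups were compared with limma 3.58.1 (R 4.3.3), two-sided, in a group-means model (residual degrees of freedom 9, prior 3.72), and p-values were adjusted by Benjamini-Hochberg over all genes. The step was run on simulated data in which a gene had the same spread in all 3 groups. That run could not test groups of unequal spread, such as those here. Named list genes were up to 4 called genes per list and comparison with the largest differences, Yap1, Wwtr1 and Tead1 to Tead4, and, for each member, the 3 genes of nearest profile. Limd1, Nf2, Gas6, Ccdc80 and Tgfb2, and the duct markers Muc1, Sox9 and Cftr, were named outside this rule, after their values were seen. Lum, Pdgfra, Postn, Pecam1 and Tek, also outside it, were named for lying below background. The members and lists were chosen with earlier results of these data known. Alternatives covered scaling, filter, choice of probe set, samples in the fit, array weights, variance prior, the letter as a block and arrays left out. The number of arrays limits the precision.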

Additional observations from a re-analysis of the deposited data

Results flagged for a closer look

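In 2 of the 30 member and group combinations examined, 1 of the 4 arrays stood apart from the rest by Dixon's criterion, which chance meets in about 1 in 20 groups. Axl read 6.05 on Ducts B, where the gap to the nearest array was 0.859 of the range of the group, while the other Ducts arrays read 9.16 to 9.67. Ccn1 read 8.57 on Acini D, with a gap of 0.845 of the range, while the other Acini arrays read 9.17 to 9.28.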

How the results depend on the processing

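The 8 members called higher against Acini kept their direction under every setting run, and all but F3 kept the call. Over all member differences and settings, 710 kept direction and side of the threshold, 2 lost the call and 17 gained one with the same sign, and 21 changed sign, of which 4 were then called. In Ducts against Acini, 1 member (Nt5e) became lower with quantile, with cyclic loess, with array weights, with the replicate block and without Acini A or Ducts B, and 1 (Ccn1) without Ducts A and B. With cyclic loess 2 members (Nt5e and Ccn1) and 2 of their probe sets were lower, in yDucts and in Ducts respectively. Leaving out 1 array gave 0 to 1 lower in Ducts and 0 to 1 called in yDucts against Ducts (Ptpn14 without Acini D, adjusted p = 0.0427). That comparison had 1 call with the mean of a gene's probe sets (Nt5e -0.83, adjusted p = 0.0468), and 6 with array weights, 3 higher and 3 lower.

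The signs that turned were of differences not called in the results above. Ccn1 gave 0.22 and 0.30 in Ducts against Acini with the mean of its probe sets and with that of the largest interquartile range and 1.03 without Ducts C and D (adjusted p = 0.0164), 0.50 in yDucts with the latter, and -0.91 to 0.19 in Ducts without 1 array. In yDucts against Ducts, Ccn1 gave 0.20 with the latter, 0.97 with array weights (adjusted p = 0.0276), 1.23 without Ducts A and B (adjusted p = 0.00595) and -0.55 to 0.56 without 1 array. F3 there gave 0.0025 with median centring, 0.53 with array weights (adjusted p = 0.0445), 0.40 without Ducts A and B and -0.18 to 0.23 without 1 array, and Ccn2 gave -0.41 without Ducts C and D and -0.19 to 0.37 without 1 array. Nt5e gave 0.15 in Ducts against Acini with the mean of its probe sets. Causes were not tested.

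The letters did not pair the arrays (correlations of deviations from -0.35 to 0.13, with 2 of 12 arrays closest to their own letter), and the replicate block called Nt5e lower in Ducts (-0.50, adjusted p = 0.0337) and changed no other call of a member. Other scalings moved the split of all genes. In Ducts against Acini 6395 were higher and 4960 lower, 4264 and 5416 with quantile, 3862 and 5475 with cyclic loess, and 7048 and 4019 with median centring. In yDucts 6534 and 4890 became 4377 and 5376, 4062 and 5390, and 7246 and 3941. The median of all genes in Ducts went from 0.205 to -0.154, -0.173 and 0.415, and that of the members from 2.95 to 2.20, 1.91 and 3.16. A filter at the 50th percentile left 3026 and 2938 lower. In yDucts against Ducts, 322 higher and 148 lower became 1293 and 891 without Ducts A and B and 160 and 161 without C and D, 98 were lower with quantile, and without 1 array the counts ran from 150 and 66 (without yDucts A) to 546 and 290 (without Ducts B).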
